A study of Peromyscus maniculatus with 16 samples.

Results

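A list of 10 genes marks the zones of the liver lobule. It was drawn up by gene name, with earlier results of these data known. Of these genes, 9 had a row among the 16910 genes counted in deer mouse liver. They are 6 pericentral genes (Glul, Oat, Axin2, Lgr5, Tbx3 and Slc1a2) and 3 periportal genes (Hal, Sds and Gls2), and all 9 passed the filter on low counts. Rhbg, an ammonia transporter of pericentral hepatocytes, is the remaining one. RNA was sequenced from whole liver of 16 outbred deer mice (P. maniculatus), which started the diets at 3 to 4 months of age and were 10 months old at the end. The control group (C) held 6 males on regular chow. The 10 animals given a high fat diet (HFD) with sucrose for 28 weeks were divided by liver histology into 5 males without steatosis (NS) and 5 animals with steatosis (S), of which 3 were female and 2 male. Every group held 1 animal of the SM2 stock (P. maniculatus sonoriensis), a male each time, and the other 13 animals were of the BW stock (P. maniculatus bairdii), a closed colony. Because all females are in S, sex and steatosis cannot be told apart in them.

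Hepatocytes divide their work along the path of the blood, from the portal vein to the central vein. Cells next to the central vein receive Wnt signals from its endothelium, which keep β-catenin active and with it glutamine synthetase and other genes of that layer, while cells on the portal side take up ammonia and amino acids first and hold the liver type glutaminase and enzymes that break down histidine and serine. The liver as a whole is known for this cycle, in which glutamine is cleaved on the portal side and made again from residual ammonia and glutamate on the central side.

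Values are counts scaled to a common library size by TMM normalization (CPM), and a difference is a log2 fold change from edgeR's quasi-likelihood test on the deposited counts, with its standard error (SE). A gene was called when its Benjamini-Hochberg adjusted p over all 12639 genes tested was under 0.1 and its fold change at least 2. S vs C, NS vs C and HFD vs C share the C animals and are given side by side. Total counts per animal lay between 4640733 and 11349971. The p-values measure the spread between these animals, each of which is 1 replicate. S animal 36016, a male, stood apart in 1 stellate cell marker, Col1a1, at 2058 CPM against 3.26 to 17.0 CPM in the other 15 animals. Its stellate markers (10 of 10 listed in the table) summed to 2296 CPM, most of it Col1a1, against 117 to 352 CPM in the others. S animal 35990, a female, had the highest summed level of Kupffer cell markers, at 1104 CPM against 196 to 627 CPM in the others. The 6 hepatocyte markers in the table, of 8 listed, summed to between 30070 and 61320 CPM per animal, and none of them was at 0 in a group. Of the marker lists in diet comparisons edgeR called Col1a1 and the endothelial Cdh13 higher in S vs C, neither without animal 36016, and the hepatocyte gene Apoa1 higher in HFD vs C. In whole liver, fewer cells of a type and less RNA per cell cannot be told apart.

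Across the 9 genes, S livers differed from C livers most clearly in Slc1a2, which fell, and in Gls2, which was lower by less than the 2-fold limit. In S vs C, 1 of the 9 genes was called, against 4.06% of all genes tested, and 2 passed the adjusted p alone, against 10.8% of all genes. In HFD vs C the same counts were 1 of 9 against a background of 0.894%, and 2 of 9 against 2.67%. In NS vs C edgeR called 0 of the 9 genes, with 0.0712% of all genes called. An unadjusted p under 0.05 was found for 2 members and for 1048 of all 12639 genes. DESeq2 called 1 member, Slc1a2, and 45 of all genes. In S vs NS edgeR and DESeq2 both called 0 of 9, with 0.00791% of all genes called by edgeR. An unadjusted p under 0.05 was found for 0 members and for 1381 of all 12639 genes. The median log2 fold change of the 9 genes was -0.26 in S vs C, where that of all genes tested was 0.10, and -0.09 in NS vs C, where that of all genes was 0.01. Whether a count of 1 or 2 among 9 genes differs from the background was not tested.

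**Figure D1:**
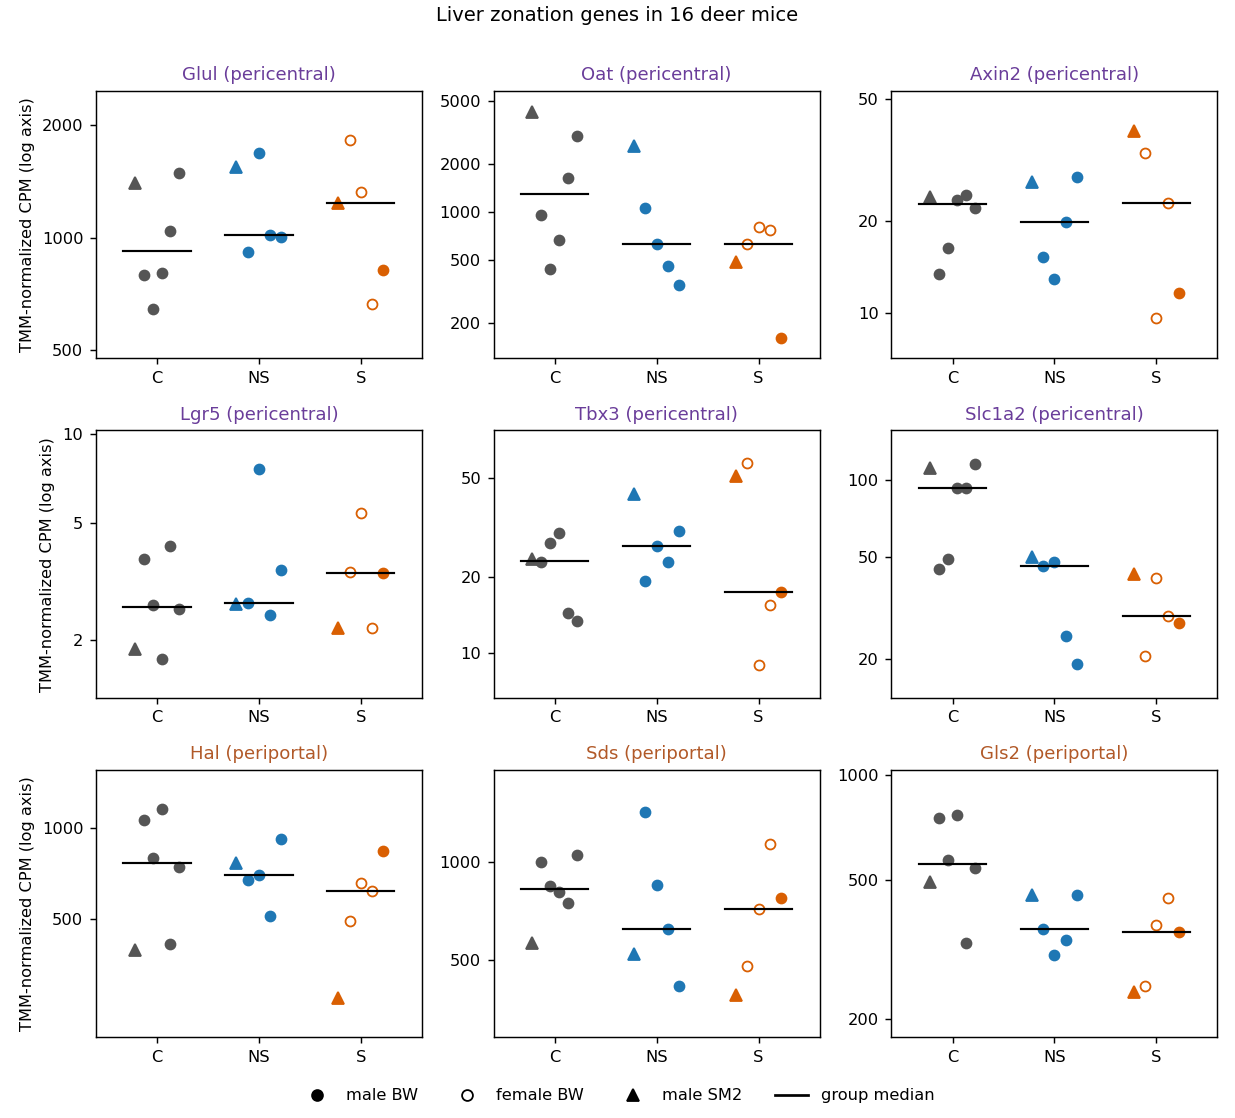
TMM-normalized CPM of the 9 zonation genes (log axis) in each animal of C (n = 6), NS (n = 5) and S (n = 5), with the group median as a bar, triangles for SM2 animals and open circles for females. The 5 S animals lie below all 6 C animals for Slc1a2 (20.6 to 42.9 against 44.9 to 114.9 CPM), and the groups overlap for the other 8 genes. The share of all genes tested whose S and C animals do not overlap is not given here.

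Slc1a2, the transporter that takes up glutamate into pericentral hepatocytes, was the one member called in a diet comparison. In C the lowest animal had 44.9 CPM, the median was 92.7 CPM and the highest animal had 114.9 CPM. In NS the animals had 19.2 (35987), 24.7 (35963), 46.1 (35930), 47.9 (35937) and 49.9 CPM (10865). In S they had 20.6 (35955), 27.6 (36016), 29.6 (35990), 41.3 (35982) and 42.9 CPM (10880). All 5 S animals, both males and the 3 females, thus lay below every C animal, while 3 NS animals reached into the low end of C, where animals 35972 and 35975 had 44.9 and 49.1 CPM. How many of all genes tested separate S from C in this way is not given here. The C group itself was split, with 4 animals at 92.7 CPM or more and 2 at 49.1 CPM or less.

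The log2 fold change of Slc1a2 was -1.38 in S vs C (SE 0.31, edgeR adjusted p = 0.0281), which is a level 2.61 times lower. In NS vs C it was -1.17 (SE 0.30) and did not pass (edgeR adjusted p = 0.294, and 0.0397 with DESeq2). Over both HFD groups it was -1.27 (SE 0.25, edgeR adjusted p = 0.0264), or 2.42 times lower. S and NS did not differ detectably, with a log2 difference of -0.21 and a 95% interval from -0.88 to 0.45. The interval holds both decreases and increases. The call in S vs C rested on a fit that includes the females, and it was lost when sex was taken into account. In the 13 males alone, with 2 S animals, the difference in S vs C was -1.25 and its adjusted p 0.126, and with sex as a covariate -1.25 with an adjusted p of 0.110. In the same 13 males HFD vs C gave -1.21 with an adjusted p of 0.0918. Without S animal 36016 the S vs C difference was -1.33 (adjusted p = 0.0678). Summed stellate markers were 2296 CPM in that animal, of which Col1a1 made up 2058 CPM. They were 165 to 352 CPM in the other S animals and 152 to 235 CPM in C. Their part in the result was not tested beyond leaving that animal out.

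Glul, which encodes glutamine synthetase and marks the hepatocytes next to the central vein, had a mean no lower on HFD than in C. Its level was 1028 CPM ± 348 (SD, n = 6) in C, 1232 CPM ± 352 (SD, n = 5) in NS and 1175 CPM ± 458 (SD, n = 5) in S. The 3 ranges overlapped almost fully, at 643 to 1485, 918 to 1680 and 663 to 1827 CPM. The log2 difference was 0.19 in S vs C, with a 95% interval from -0.39 to 0.77, and 0.26 in NS vs C, with an interval from -0.32 to 0.84. A decrease of the size seen for Slc1a2 lay outside both intervals.

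Oat, ornithine aminotransferase, which converts ornithine on the way to glutamate, had lower means on HFD but the widest spread of the 9 genes. The C animals ran from 437 to 4311 CPM with a median of 1298 CPM. The NS animals had 347 (35987), 457 (35963), 631 (35937), 1061 (35930) and 2600 CPM (10865). The S animals had 162 (36016), 482 (10880), 628 (35955), 774 (35990) and 801 CPM (35982). The highest animal of C and of NS was in each case the SM2 animal, and the groups overlapped, since C animals 35975 and 35998 had 437 and 672 CPM. In S vs C the log2 fold change was -1.69 (SE 0.62, edgeR adjusted p = 0.116), the largest of the 9 in size and still short of the threshold. NS vs C gave -0.85 (SE 0.61, adjusted p = 0.739), and HFD vs C gave -1.27 (SE 0.50, adjusted p = 0.196). The direction was the same in both HFD groups, and Oat passed the test in neither. DESeq2 and a fit with stock as a covariate both called Oat in S vs C, at adjusted p = 0.0888 and 0.0896. In BW animals alone the difference was -1.20 with an adjusted p of 0.187. With sex as a covariate and in males alone, with 2 S animals, it was -2.52 (adjusted p = 0.122 and 0.160). Leaving out 1 animal moved NS vs C between -1.56 (without NS animal 10865) and -0.40 (without C animal 10876).

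The 3 members tied most directly to Wnt signalling, Axin2, Tbx3 and Lgr5, passed the test in no diet comparison, and their intervals held both decreases and increases. Axin2, a scaffold of the complex that degrades β-catenin and itself a target of the pathway, had a mean of 20.6 CPM ± 4.54 (SD, n = 6) in C, 20.6 CPM ± 6.70 (SD, n = 5) in NS and 23.3 CPM ± 13.0 (SD, n = 5) in S. Its range in S, from 9.64 to 39.2 CPM, enclosed the whole range in C, from 13.4 to 24.2 CPM. Tbx3, a T-box transcription factor of pericentral hepatocytes, had 22.01 CPM ± 6.78 (SD, n = 6) in C, 28.6 CPM ± 9.17 (SD, n = 5) in NS and 30.0 CPM ± 22.3 (SD, n = 5) in S. In S it divided the animals, with 50.8 CPM in 10880 and 57.3 CPM in 35955 but 8.90 to 17.5 CPM in the other 3, so that the S median, 17.5 CPM, was below the C median of 23.3 CPM while the S mean was above that of C. The same 2 animals were the highest of S for Axin2, at 39.2 and 33.3 CPM. The log2 difference in S vs C was 0.19 for Axin2 (95% interval from -0.48 to 0.87) and 0.46 for Tbx3 (95% interval from -0.37 to 1.29).

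Lgr5, the R-spondin receptor of pericentral hepatocytes, was near the limit of detection, with 11 to 56 counts per animal, so that its CPM carries much counting error. Its mean was 2.79 CPM ± 0.993 (SD, n = 6) in C, 3.76 CPM ± 2.18 (SD, n = 5) in NS and 3.31 CPM ± 1.30 (SD, n = 5) in S. NS animal 35937 had 7.60 CPM, above every other animal, and S animal 35982 had 5.38 CPM. The log2 difference was 0.23 in S vs C (95% interval from -0.54 to 1.01) and 0.42 in NS vs C (95% interval from -0.34 to 1.19), and neither passed the test. Without NS animal 35937 the difference in NS vs C was 0.0071.

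Of the periportal members, Gls2, the liver type glutaminase that releases ammonia from glutamine, was lower in S. The C animals ran from 329 to 768 CPM with a median of 557 CPM. The NS animals had 305 (35937), 337 (35963), 362 (35930), 453 (10865) and 454 CPM (35987). The S animals had 239 (10880), 249 (35955), 354 (36016), 373 (35982) and 444 CPM (35990). Of the 6 C animals, 5 lay above all HFD animals and 1, animal 36001 with 329 CPM, lay among them. Gls2 passed the adjusted p in S vs C, with a log2 fold change of -0.80 (SE 0.22, edgeR adjusted p = 0.0519), or 1.74 times lower, which is short of the 2-fold limit. HFD vs C gave -0.70 (SE 0.18, edgeR adjusted p = 0.0784) and NS vs C gave -0.59 (SE 0.22, adjusted p = 0.513). The 2 HFD groups lay close together. The log2 difference between S and NS was -0.20, with a 95% interval from -0.68 to 0.27. In the fits that left out 1 animal the adjusted p in S vs C stayed between 0.0412 and 0.0990, whereas that in HFD vs C ran from 0.0548 to 0.153 and so lay on both sides of 0.1.

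Hal and Sds did not pass in any diet comparison. Hal, histidine ammonia-lyase, the first enzyme of histidine breakdown, had 760 CPM ± 318 (SD, n = 6) in C, 714 CPM ± 148 (SD, n = 5) in NS and 577 CPM ± 211 (SD, n = 5) in S. Sds, serine dehydratase, which turns serine into pyruvate, had 836 CPM ± 178 (SD, n = 6) in C, 767 CPM ± 403 (SD, n = 5) in NS and 699 CPM ± 294 (SD, n = 5) in S. Both had their means in the order C, NS, S, and no neighbours in that order differed beyond the spread between animals. In S vs C the log2 difference was -0.40 for Hal (95% interval from -1.03 to 0.23) and -0.26 for Sds (95% interval from -0.90 to 0.39). The spread of Sds between animals was larger on HFD, at 388 to 1427 CPM, than in C, at 561 to 1052 CPM, but this difference in spread was not tested.

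**Figure D2:**
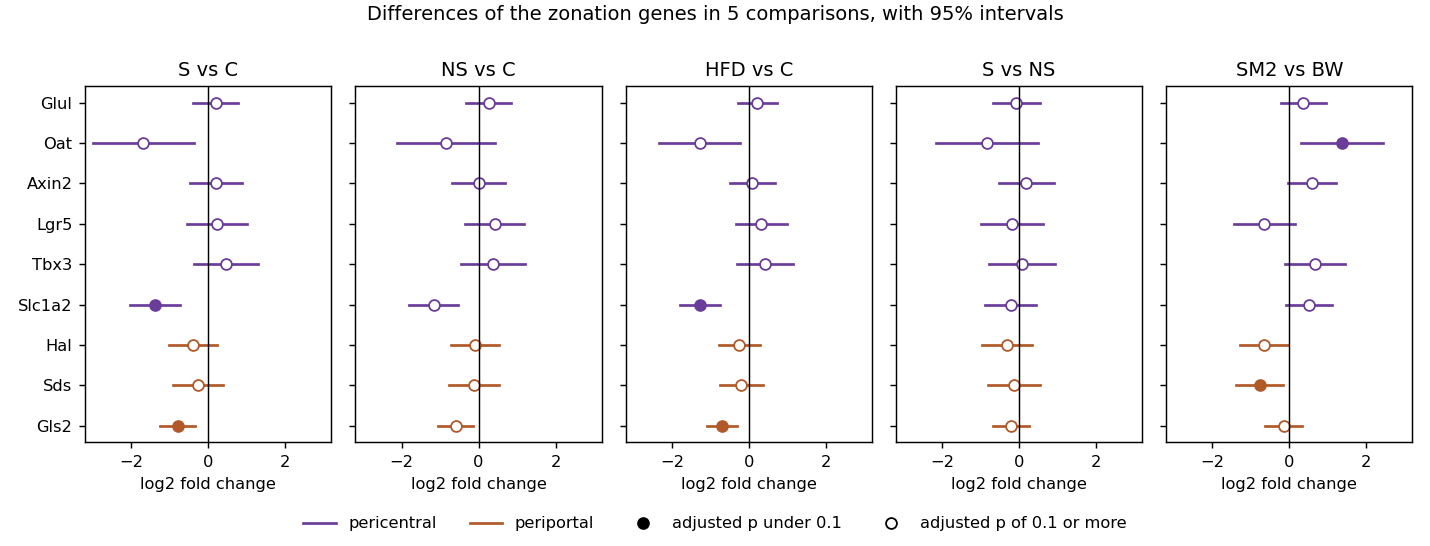
Log2 fold change (x axis) of each zonation gene with its 95% interval in S vs C, NS vs C, HFD vs C, S vs NS and SM2 vs BW, where filled points have an edgeR adjusted p under 0.1. Slc1a2 and Gls2 are filled in S vs C (-1.38 and -0.80) and in HFD vs C (-1.27 and -0.70), no gene is filled in NS vs C or in S vs NS, and Oat (1.37) and Sds (-0.77) are filled in SM2 vs BW.

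The animals also differed by stock. SM2 and BW animals were compared over all 16 animals with the group as a covariate, since each group held 1 SM2 animal. Of the 9 genes 1 was called, against 10.8% of all genes tested, and 2 passed the adjusted p alone, against 21.8%.

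Oat was higher in SM2 animals, with a log2 difference of 1.37 (SE 0.50, edgeR adjusted p = 0.0778). The SM2 animals had 4311 CPM in C, 2600 CPM in NS and 482 CPM in S. The BW animals had 437 to 3026 CPM in C, 347 to 1061 CPM in NS and 162 to 801 CPM in S. The SM2 animal was thus above the BW animals of its group in C and in NS and within their range in S, and whether the stock difference depended on the group was not tested. Without the NS SM2 animal 10865 the log2 difference was 0.92 (adjusted p = 0.433), and without the C SM2 animal 10876 it was 1.17 (adjusted p = 0.264). The call was also lost without any one of NS animals 35963, 35987 and 35937 or C animals 35998 and 35972, at adjusted p from 0.101 to 0.116. In all, Oat was called in 15 of 23 alternative fits and not in 8. Among the 15 were the fit with sex as a covariate and that of males alone, both at 1.80 (edgeR adjusted p = 0.00822 and 0.0131).

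Sds passed the adjusted p in the other direction, with a log2 difference of -0.77 (SE 0.29, edgeR adjusted p = 0.0854), or 1.71 times lower in SM2. The SM2 animals had 561 CPM in C, 522 CPM in NS and 388 CPM in S. The BW animals had 746 to 1052 CPM in C, 415 to 1427 CPM in NS and 476 to 1139 CPM in S. The SM2 animal was the lowest of its group in C and in S and the second lowest in NS. The adjusted p was 0.121 with sex as a covariate, 0.156, 0.213 and 0.319 without the SM2 animal of C, NS and S, and 0.1005 to 0.108 without any one of NS animal 35937 and C animals 35972, 35975 and 36007. Hal had a log2 difference of -0.66 (SE 0.30, adjusted p = 0.151), with the SM2 animal lowest in C at 393 CPM and in S at 274 CPM but not in NS, at 767 CPM. Without that NS animal, 10865, Hal was called (-1.17, adjusted p = 0.0440), and without the S SM2 animal 10880 the difference was -0.39 (adjusted p = 0.576). Axin2, Tbx3 and Slc1a2 had log2 differences of 0.60, 0.67 and 0.52 in favour of SM2, none of which passed (adjusted p = 0.187, 0.243 and 0.233). Summed endothelial markers (11 of 12 listed) were 142 to 192 CPM in SM2 and 173 to 333 CPM in BW, and summed Kupffer markers (9 of 10 listed) were 196 to 400 CPM and 310 to 1104 CPM. No listed marker in the table was at 0 in all animals of a stock. Of the endothelial markers 4 were called lower in SM2, among them Pecam1, Kit and Tek, and 1 higher, Lyve1. Of the Kupffer markers Vsig4 and Marco were lower and Cd163 and Adgre1 higher, Adgre1 with only 3 to 16 counts in SM2 and up to 6 in BW. The bile duct markers Spp1 and Krt7 were lower, though neither was called without S animal 35990, nor Krt7 without 36016 or by DESeq2. The part of these cells in the stock differences was not tested.

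The 9 genes differed in how much they varied between animals of one group. The SD of log2 CPM around the group means was 1.14 for Oat, larger than in 95% of all genes tested, and 0.744 for Tbx3, larger than in 80% of them. Gls2 varied least, with an SD of 0.380, below the median of all genes, 0.455. The other 6 genes had SDs between 0.494 (Glul) and 0.601 (Axin2), all above that median.

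Whether members rose and fell together was examined after each group's mean was taken off the log2 CPM, by permutation tests over the 36 pairs in 16 animals. Hal and Gls2, both periportal, moved together, with Pearson's r = 0.812 (permutation p = 0.0008, adjusted p = 0.0288) and Spearman's rho = 0.876 (permutation p = 0.00026, adjusted p = 0.00936). Without the 2 animals farthest from the median of Hal r was 0.849, and without the 2 farthest from that of Gls2 it was 0.743. In the 13 BW animals r was 0.859 but its adjusted p was 0.0911, and with single animals left out r stayed between 0.775 and 0.850 while the adjusted p rose to as much as 0.0947. No other pair passed.

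**Figure D3:**
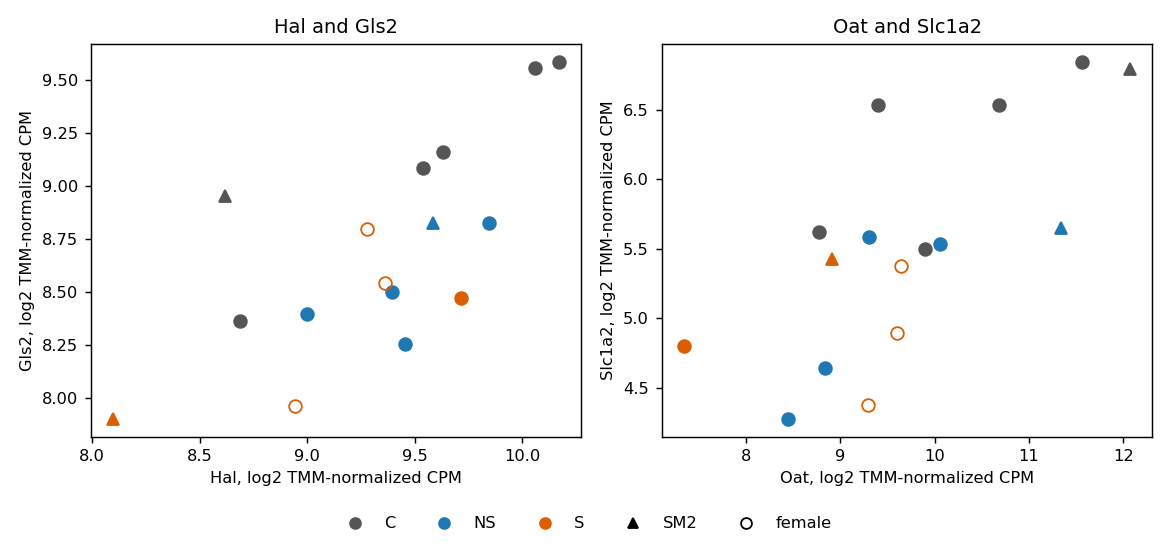
Log2 TMM-normalized CPM of Hal against Gls2 (left) and of Oat against Slc1a2 (right) in each animal, coloured by group, with triangles for SM2 animals and open circles for females. The r within groups is 0.812 for Hal and Gls2 and 0.644 for Oat and Slc1a2, and the C animals hold the highest values of each gene.

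The next pairs were Oat with Slc1a2, both pericentral (r = 0.644, rho = 0.738, permutation p = 0.0186 and 0.00506, adjusted p = 0.198 and 0.0845), and Glul with Oat, also both pericentral (r = 0.607, rho = 0.559, permutation p = 0.0200 and 0.0352, adjusted p = 0.198 and 0.211). Without the 2 animals farthest from the median of Oat the first was 0.606 and the second 0.48, without the 2 farthest from that of Slc1a2 the first was 0.613, and without the 2 farthest from that of Glul the second was 0.586. Axin2 and Tbx3 had r = 0.680 (rho = 0.609, permutation p = 0.0534 and 0.0517, adjusted p = 0.275 and 0.266), and 0.531 and 0.475 without the 2 animals farthest from the median of Axin2 and of Tbx3. Sds ran against both of these, with r = -0.614 to each (permutation p = 0.0331 and 0.0235, adjusted p = 0.198), rho = -0.724 and -0.665 (permutation p = 0.00798 and 0.00939, adjusted p = 0.0845), and -0.692 and -0.680 without the 2 animals farthest on Axin2 and on Tbx3, or -0.798 and -0.593 without the 2 farthest on Sds. Genes of opposite zones otherwise had values of r from -0.50 (Glul and Gls2) to 0.15 (Lgr5 and Hal). Axin2 and Lgr5, both Wnt-dependent, had r = -0.557 (permutation p = 0.0319, adjusted p = 0.198; rho = -0.447, permutation p = 0.130, adjusted p = 0.390), which shrank to -0.469 without the 2 animals farthest from the median of Axin2 and to -0.298 without the 2 farthest from that of Lgr5.

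**Figure D4:**
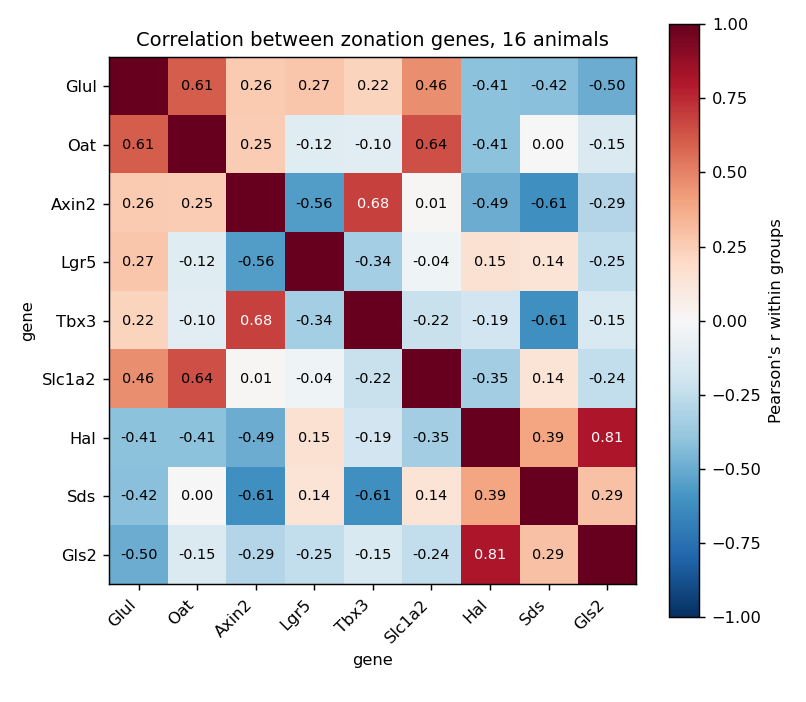
Pearson's r between each pair of the 9 zonation genes over 16 animals, on log2 CPM with the group means taken off. The darkest cell off the diagonal is Hal with Gls2 (0.81), followed by Axin2 with Tbx3 (0.68), Oat with Slc1a2 (0.64), and Sds with Axin2 and with Tbx3 (-0.61 each).

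For each member the 2 genes with the most similar log2 CPM over the 16 animals were picked from all genes tested, as a description. Hal was closest to Amdhd1, the enzyme of a later step of histidine breakdown, with r = 0.902 and rho = 0.90. The 2 genes are neighbours in the RefSeq annotation of a later deer mouse assembly, and the strand setting of the counting is not given in the sources used here, so reads of overlapping transcripts could not be told apart. Amdhd1 itself had a log2 difference of -0.67 in S vs C (SE 0.27, edgeR adjusted p = 0.146). Glul was closest to Crat, which encodes carnitine acetyltransferase (r = 0.875, rho = 0.847), and Oat to Agmat (r = 0.852, rho = 0.803). Slc1a2 was closest to Etnk2, an ethanolamine kinase (r = 0.853, rho = 0.832), but with the group means taken off r was 0.658. Gls2 was closest to Slc22a4 (r = 0.842, rho = 0.797) and second to Aass (r = 0.825, rho = 0.829), an enzyme of lysine breakdown. With the group means taken off these r were 0.742 and 0.665. Sds was closest to Btg2 and Rlf, Tbx3 to Parn and Zswim1, Axin2 to 9430015G10Rik and Wfikkn1, and Lgr5 to Gps1 and Gpn1, with r from 0.729 to 0.876. The second genes of Glul, Oat and Hal were Rcc1l, Nob1 and Lrg1, with r from 0.772 to 0.837.

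**Figure D5:**
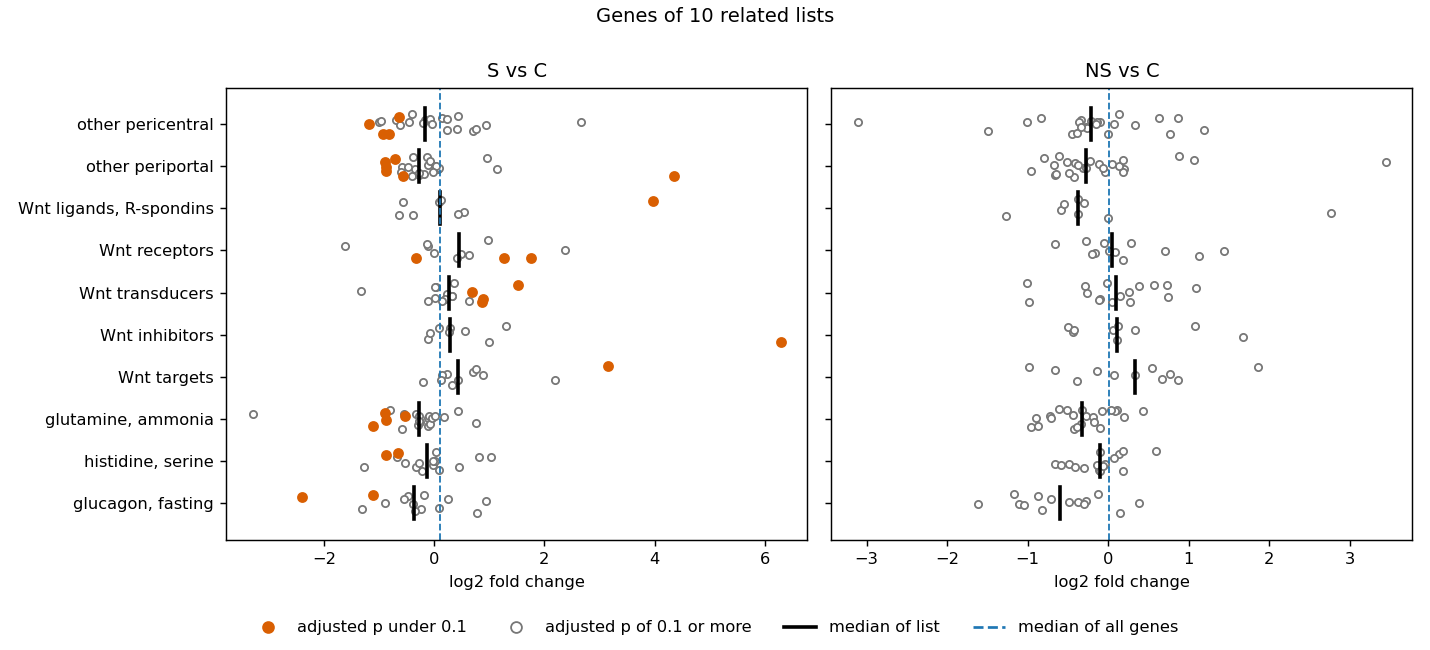
Log2 fold change (x axis) of the genes of 10 related lists in S vs C (left) and NS vs C (right), with filled points for an edgeR adjusted p under 0.1, a bar at each list's median and a dashed line at the median of all genes tested (0.10 and 0.01). No point is filled in NS vs C, and the median of the other pericentral genes lies at -0.16 in S vs C and that of the other periportal genes at -0.28.

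The wider zones are given as context for the 9 genes. Over all genes tested 4.06% were called in S vs C, and 1 call among 23 or 25 genes is near that share. The adjusted p alone was passed by 10.8% of all genes tested, in either direction. Of 23 other pericentral genes tested, 1 fell in S vs C and 0 rose, with a median log2 fold change of -0.16. The called gene was Prodh, proline dehydrogenase, whose product feeds the same glutamate pool as Oat, at 165.5 CPM ± 48.5 (SD, n = 5) in S against 376 CPM ± 78.5 (SD, n = 6) in C (log2 fold change -1.18, SE 0.20, edgeR adjusted p = 0.0125). Lect2, Cyp27a1 and Nr1i3 passed the adjusted p alone, at -0.83, -0.63 and -0.93. Of 25 other periportal genes, 1 rose and 0 fell in S vs C, with a median of -0.28. Apoa4, an apolipoprotein of lipid secretion, rose (edgeR adjusted p = 0.0125), with 17.8 to 212 CPM in C and 569 to 2012 CPM in S. Another 5 genes passed the adjusted p lower but not the 2-fold limit, the urea cycle genes Arg1 and Ass1, at -0.87 and -0.89 (edgeR adjusted p = 0.0620 and 0.0855), and Cyp2f2, Agxt and Hpd, at -0.56, -0.87 and -0.71. Without S animal 35990, 2 of them were called lower, Ass1 (-1.14) and Agxt (-1.24). In HFD vs C, where 0.894% of all genes tested were called, the called genes of the 2 lists were again Prodh and Apoa4. Prodh was short of the 2-fold limit there without S animal 36016 (-0.96).

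Around glutamine and ammonia, 22 of 26 listed genes were tested. In S vs C 0 of them were called higher and 1 lower, near the 4.06% called over all genes tested. The lower gene was Gpt, alanine aminotransferase (log2 fold change -1.12, SE 0.24, edgeR adjusted p = 0.0272), which was also called in HFD vs C, but not without S animal 35990 (-0.95). In S vs C 4 genes of this list passed the adjusted p lower, Gpt, Otc (-0.52), Arg1 and Ass1, where 10.8% of all genes tested passed in either direction. Without animal 35990 Gpt and Ass1 were both called. Of the 16 genes of histidine, serine and glycine breakdown tested, edgeR and DESeq2 called 0 in S vs C. An unadjusted p under 0.05 was found for 4 of the 16 and for 3010 of all 12639 genes tested. Gcsh and Agxt were lower, at -0.66 and -0.87, by adjusted p alone, and Agxt was called without animal 35990. Of 14 genes of the glucagon and fasting response, 2 were lower in S vs C, or 3 without S animal 36016, and 0 higher. The 2 were Nnmt, nicotinamide N-methyltransferase, at 18.9 to 52.1 CPM in S against 109 to 350 CPM in C (log2 fold change -2.39, SE 0.41, edgeR adjusted p = 0.0125), and Crem, a cAMP-responsive transcription factor (-1.11, adjusted p = 0.0318), and both were also called in HFD vs C.

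In the Wnt pathway, S vs C held 1 called gene of 8 ligands and R-spondins tested, 2 of 12 receptors, 1 of 16 transducers, 1 of 9 inhibitors and 1 of 11 targets, all of them higher by edgeR. Of all genes tested 4.06% were called in S vs C, 391 higher and 122 lower. Without S animal 36016 the Wnt counts were 0, 1, 1, 0 and 1, and without S animal 35990 they were 1, 2, 2, 1 and 1. DESeq2 called 4 receptors, adding Fzd2 and Fzd3, and 2 transducers, adding Pygo1. Fzd2 had 29.5 CPM in S animal 36016, while the other S animals had 1.11 to 3.91 CPM and C 0.0984 to 2.97 CPM. Fzd3 was lower in S, at 0.366 to 1.43 CPM against 1.48 to 4.77 CPM in C (-1.62, edgeR adjusted p = 0.145), and the receptor Ryk passed the adjusted p lower, at -0.34. Fzd8, a Wnt receptor, had 42.9 to 84.2 CPM in S against 13.9 to 46.2 CPM in C (log2 fold change 1.28, edgeR adjusted p = 0.0614), and 1.37 without that animal. Bcl9, which links β-catenin to its co-activators, had 2.96 to 8.26 CPM against 0.998 to 2.08 CPM (1.52, adjusted p = 0.0375), and it was also called in HFD vs C. Ccnd1, cyclin D1, rested on S animals 35990 and 36016 with 62.3 and 38.5 CPM, while the other S animals had 2.78 to 5.49 CPM and C 1.18 to 3.90 CPM. Fzd7, Wnt5a and Sfrp1 lost their calls without animal 36016, which had 53 counts of Wnt5a and 235 counts of Sfrp1, where the C animals had at most 3 and 2, and DESeq2 did not call Sfrp1. Of the members tied most directly to Wnt signalling, Axin2 in animal 36016 stood at 11.6 CPM and Tbx3 at 17.5 CPM, both below their C medians of 22.7 and 23.3 CPM, and Lgr5 at 3.38 CPM (18 counts), above its C median of 2.59 CPM. The other pericentral members, Glul, Oat and Slc1a2, stood at 819, 162 and 27.6 CPM in this animal, below their C medians of 922, 1298 and 92.7 CPM. Over the 178 genes of all lists tested, edgeR called 0 when NS was compared with C and 0 when S was compared with NS. Of the 178, 30 and 23 had an unadjusted p under 0.05, and of all 12639 genes tested 1048 and 1381 did. DESeq2 called 5 of the 178 in NS vs C (Apoa1, Apoa4, Crem, Cyp8b1 and Thbd) and 2 in S vs NS (Ccnd1 and Nnmt). Over all 12639 genes tested it called 45 and 59.

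In SM2 vs BW 10.8% of all genes tested were called, 747 higher and 623 lower. Of the 23 other pericentral genes 4 were called higher and 0 lower, with a median log2 difference of 0.20 where that of all genes was -0.04. They were Gstm3, which DESeq2 did not call, Slc22a3, Sp5 and Gulo. Sp5, a Wnt target, had 6.99 to 11.5 CPM in SM2 and 0.563 to 5.04 CPM in BW. Gulo, the last enzyme of vitamin C synthesis, had 1347 to 1760 CPM in SM2 and 109 to 935 CPM in BW. Of the 25 other periportal genes edgeR called 2 lower. Pck1, which encodes the gluconeogenic enzyme PEPCK, was at -1.43. The SM2 animals had 3155 CPM of Pck1 in C, 582 CPM in NS and 591 CPM in S. The BW animals had 3391 to 3835, 1831 to 4963 and 1549 to 3656 CPM. The SM2 animal in C was thus close to the BW animals, and whether this stock difference depended on the group was not tested. Cyp17a1 had 0 counts in all 3 SM2 animals and at most 8 in a BW animal, passed the filter on low counts through BW animals only, and was not called by DESeq2. Among Wnt genes Fzd1 and Wif1 were higher in SM2 (1.70 and 3.21) and Wnt2, Fzd2, Fzd3 and Sfrp2 lower. Wif1 was low, with 17, 6 and 51 counts in the SM2 animals of NS, C and S. In C the SM2 animal, at 0.59 CPM, lay below BW animals 35972 and 35975, at 0.72 and 0.83 CPM. Slc38a1, a glutamine transporter, had 0.731 to 17.5 CPM in SM2 and at most 0.436 CPM in BW. It passed the filter on low counts through SM2 animals only, the stock in which it was higher. Asns, asparagine synthetase, had 0.853 to 1.97 CPM in SM2 against 8.07 to 38.2 CPM in BW. Next to Sds in serine metabolism, Shmt1 was higher in SM2 (1.28) and Psat1 and Phgdh lower (-1.27 and -1.18). Tdh was also called lower, at under 1.88 CPM in every animal and at most 0.197 CPM in SM2. It passed the filter on low counts through BW animals only.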

How the data were processed

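Livers of 16 deer mice were sequenced (NEBNext directional libraries, paired-end). The authors aligned reads to HU_Pman_2.1, an assembly of the BW subspecies, with STAR v2.7.2, assigned uniquely mapped reads to genes with featureCounts from Subread and an Ensembl annotation, and deposited raw counts by gene symbol, without normalization. The strand setting and the conversion to symbols are not given in the sources used here, so overlapping genes and close paralogs are uncertain. Groups, stock and sex were taken from the sample labels; 0 columns were left unmapped and 0 rows named no gene. No 2 libraries of a group agreed within sampling noise, so each counted as 1 replicate.

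R 4.3.3 with edgeR 4.0.16 (and limma 3.58.1) was used for the quasi-likelihood test after TMM scaling, on genes that reached 0.5 CPM in 1 animal or more, in 1 fit of 16 animals without covariates. HFD vs C is the mean of the S and NS coefficients against C. SM2 vs BW came from a fit of group and stock. Calls needed an adjusted p under 0.1 and a fold of at least 2, the limits in the study's methods. Correlations used log2 CPM with a prior count of 2 and 100000 permutations within groups (numpy 2.4.6, pandas 2.3.3 and scipy 1.17.1 in Python 3.11.15), with a threshold of 0.05. Figures were drawn with matplotlib 3.10.9. The edgeR calls and the permutation test were tested on simulated data.

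The members, the gene lists and the tests were chosen with earlier results of these data known. Named were all members, from each other list the called genes (at most 4 per list and comparison, by adjusted p), and for each member the 2 genes of highest r. Genes named for passing the adjusted p alone, Amdhd1, and the values of single animals were chosen after they were seen. The lists hold other pericentral and periportal genes, Wnt ligands, receptors, transducers, inhibitors and targets, glutamine and ammonia, histidine and serine breakdown, the glucagon and fasting response, and markers of hepatocytes, endothelial, Kupffer, stellate and bile duct cells. A few genes of the lists and of the most similar genes are not reported here and were taken out of the list counts, medians and plot, but not out of the fits. The fits were repeated 16 times with 1 animal removed. Other choices tried were a covariate for stock or sex, males only, BW only, a fit without the third group, no group term, DESeq2 1.42.0, RLE scaling, no filter or a stricter one, changed thresholds and, for correlations, CPM by total count.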

Additional observations from a re-analysis of the deposited data

Results flagged for a closer look

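Of the 27 sets of 1 zonation gene in 1 group, 1 held an animal far from the others, where chance alone puts about 1 in 20 sets past this limit. It was Lgr5 in NS animal 35937, with 7.60 CPM from 56 counts, against 3.46 CPM in the next highest NS animal. The gap was 0.800 of the whole range in NS, where the 95% critical value for 5 animals is 0.710. Without this animal the log2 difference of Lgr5 in S vs NS turned from -0.19 to 0.23, and neither passed the test.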

How the results depend on the processing

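The alternatives gave 1188 values of the members, of which 1133 kept their direction and their side of the limits. In S vs C the number of members called was 2 with DESeq2, with stock as a covariate (Oat in both) and with no minimum fold (Gls2), and 0 with sex as a covariate and in males alone, where 2 S animals remained. With 1 animal left out it was 1 to 2, and 2 without NS animal 10865 or C animal 35998, when Oat was called. In NS vs C DESeq2 called 1. In HFD vs C no minimum fold gave 2, and Slc1a2 was called in all 24 alternative fits. In SM2 vs BW the number was 0 without a group term and at an adjusted p of 0.05, 2 with no minimum fold, and 0 to 1 with 1 animal left out. Correlated pairs numbered 0 in BW animals and in males alone and 0 to 3 with 1 animal left out, 3 without S animal 35990 (with Glul and Oat, and Axin2 and Sds) and 0 without any of S animals 10880 and 35982, NS animal 35987 and C animals 35998, 35972, 35975, 36001 and 36007. The cause was not tested.

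Differences that changed sign passed no test. Apart from the fits with 1 animal left out, the values of changed sign lay near 0. They were Lgr5, S vs C (-0.0145 with sex as a covariate and -0.0132 in males), Axin2 in BW animals (-0.0275 in S vs C and -0.0549 in HFD vs C), Axin2, NS vs C (0.0002 without a filter), Hal, NS vs C (0.0091 with stock) and Glul, S vs NS (0.0175 in BW animals). With 1 animal left out the log2 difference ran in S vs C from -0.024 to 0.34 for Glul, -0.0747 to 0.38 for Axin2 and -0.0035 to 0.39 for Lgr5. In NS vs C it ran from -0.14 to 0.13 for Axin2, -0.22 to 0.0674 for Hal and -0.47 to 0.033 for Sds. In S vs NS it ran from -0.28 to 0.0811 for Glul, -0.0639 to 0.38 for Axin2, -0.43 to 0.23 for Lgr5, -0.30 to 0.31 for Tbx3 and -0.38 to 0.22 for Sds. In HFD vs C it ran from -0.0428 to 0.19 for Axin2, and in SM2 vs BW from -0.41 to 0.0609 for Gls2.

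Called genes of all tested moved by more than 1.5 times as follows. S vs C had 513, with 192 to 573 when 1 animal was left out (192 without C animal 36007), 209 at an adjusted p of 0.05 and 1359 with no minimum fold. NS vs C had 9, with 45 in DESeq2, 29 with stock, 5 at 0.05 and 2 to 29 with 1 animal left out. S vs NS had 1, with 59 in DESeq2, 17 with stock, 191 with sex, 157 in males, 18 in BW animals, 0 in a fit of only its groups and up to 15 with 1 animal left out. HFD vs C had 113, with 245 in DESeq2, 231 with stock, 228 with sex, 42 at 0.05, 338 with no minimum fold and 36 to 234 with 1 animal left out. SM2 vs BW had 1370, with 2752 with no minimum fold and 868 to 1448 with 1 animal left out.

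No paired analysis was possible because the replicate numbers are given in accession order and pair no animals. Depth limits Lgr5 most, with 11 to 56 counts.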
